A study of Mus musculus with 4 samples.

Results

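The expression of calcineurin, of the NFAT transcription factors that it activates and of its inhibitors was examined in lung group 2 innate lymphoid cells (ILC2s) cultured with the Orai channel blocker 5D. The 10 genes were taken by name from the 22554 genes of the count table, with no cutoff on a measured value. The list was made with earlier results of these data known. They are 4 NFAT factors (Nfatc1, Nfatc2, Nfatc3 and Nfat5), 3 calcineurin subunits (Ppp3ca, Ppp3cb and Ppp3r1) and 3 inhibitors of calcineurin (Rcan1, Rcan3 and Cabin1). ILC2s were sorted from the lungs of BALB/c mice aged 6 weeks and kept in culture overnight with IL-2, IL-7 and IL-33, which both groups received. One group was given compound 5D and the other its vehicle, with 2 libraries in each group. The dose of 5D used for sequencing was not given in the sources used here, and no genetic change was made in either group. The overnight time is from the labels, and the paper words the culture time differently, so the length of exposure to 5D is not settled. The labels do not state whether the 2 libraries of a group came from separate mice or cultures, so p-values measure only the spread between these libraries, which may be technical.

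ILC2s are tissue-resident lymphocytes that make type 2 cytokines such as IL-5 and IL-13 when the alarmin IL-33 reaches them. In lymphocytes, emptying of the calcium stores opens Orai channels in the plasma membrane, and the calcium that enters binds calmodulin, which switches on the phosphatase calcineurin. Calcineurin removes phosphates from NFATc proteins, which then move into the nucleus and bind GGAAA motifs at cytokine genes, while kinases add the phosphates back and return NFAT to the cytoplasm. The activity of the pathway is therefore set largely on proteins, and RNA-seq measures the supply of its transcripts.

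Rcan1 closes a feedback loop in this pathway, since its product inhibits calcineurin and one of its transcripts is itself induced by NFAT. RefSeq windows covered an upstream start and an internal start of the gene. The 250 bases before each are shown because they differ in the NFAT core motif. The motif was searched as GGAAA on either strand, which reads as GGAAA or TTTCC here, and each match is in capitals. Both sequences are from RefSeq (GRCm38.p6), on the minus strand and 5′ to 3′. The window before the internal start is chr16:92400079-92400328 and that before the upstream start is chr16:92466170-92466419. Both windows lie inside the annotated span of Rcan1, and 0 of their bases are in an annotated exon. That span runs to 92470867, beyond the upstream window, so any start annotated further upstream was not searched.
Rcan1, before the internal start: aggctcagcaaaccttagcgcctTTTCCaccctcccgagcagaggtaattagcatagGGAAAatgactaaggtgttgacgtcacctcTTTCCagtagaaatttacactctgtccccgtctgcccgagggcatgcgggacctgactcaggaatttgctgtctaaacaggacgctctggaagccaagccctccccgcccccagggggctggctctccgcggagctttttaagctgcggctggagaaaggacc
Rcan1, before the upstream start: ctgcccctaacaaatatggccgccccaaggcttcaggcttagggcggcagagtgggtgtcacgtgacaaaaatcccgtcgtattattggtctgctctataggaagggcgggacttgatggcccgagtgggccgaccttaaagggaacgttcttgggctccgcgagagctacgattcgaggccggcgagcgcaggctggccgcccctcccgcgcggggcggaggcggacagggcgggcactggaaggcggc
The internal window held 3 matches, whose first bases lie at -227, -193 and -163 from the start, and the upstream window held 0. Of all 32851 RefSeq windows of this length, 55.6% held at least 1 match, 6.39% held 3 or more and 44.4% held 0. RefSeq windows were found for 8 of the 10 genes (all but Nfatc1 and Ppp3ca), 11 windows in all, of which 7 held at least 1 match. Nfatc2 and Ppp3cb each had a further window with 3 matches, and the windows of Cabin1 and Ppp3r1 held 0. A match is a run of letters and does not show binding, and counts per gene do not separate the transcripts of the Rcan1 starts.

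The libraries held 23239764 and 20096513 summed counts in the vehicle group and 26912647 and 28697196 in the 5D group. Expression is given as normalized CPM (counts scaled to a common total after upper-quartile normalization of each library), and differences as log2 fold changes of 5D over vehicle from edgeR. All 10 genes passed the filter on low counts and were among the 17650 genes tested, with 344 to 3820 counts per gene and library. Of 11 ILC2 markers 11 were tested, and their summed level was 10267 to 10469 normalized CPM with vehicle and 9595 to 10002 with 5D. Il5 and Il2ra made up most of it. Gata3, the transcription factor that ILC2s depend on, had 1091 to 1108 normalized CPM. Of these markers, Klrg1, Il2ra, Thy1 and Il5 were lower with 5D and Il1rl1 was higher at an edgeR unadjusted p under 0.05. Of all genes tested, 7.34% passed that threshold. The 33 markers of other cell types, of which 27 were in the table, summed to 81.7 to 85.9 normalized CPM with vehicle and 82.5 to 83.7 with 5D. Most of that sum was Cd3g, Epcam and Pecam1, whereas Cd4 of helper T cells and Scgb1a1 of airway epithelium were at 0 in each library. Pecam1 of endothelium had 23.7 and 21.3 normalized CPM with vehicle and 19.9 and 15.7 with 5D, lower in both 5D libraries. The part of these cells in the results below was not tested.

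All 10 genes were expressed with vehicle and with 5D, and no difference between the groups passed an adjusted p of 0.05. The 10 genes summed to 733 and 717 normalized CPM with vehicle and to 714 and 713 with 5D. Their log2 fold changes ran from -0.28 for Nfat5 to 0.11 for Ppp3ca, with a median of -0.03 against -0.0016 over all genes tested. The log2 fold change was above 0 in 4 and below 0 in 6 of the 10 genes, where 49.6% and 50.4% of all genes tested were. In the quasi-likelihood test of edgeR, with p-values adjusted by Benjamini-Hochberg, 0 of 10 passed (adjusted p 0.624 to 0.998), where 0.0963% of all genes tested did, 0.0283% higher and 0.068% lower. At an unadjusted p under 0.05, 1 of 10 passed, Nfat5, which was lower, where 7.34% of all genes tested passed and 3.84% were lower. At the unadjusted threshold DESeq2 called 0 of 10, and limma-voom called Nfat5. DESeq2 gave Nfat5 and Rcan1 no adjusted p-value, and no other member passed its adjusted threshold. The 95% intervals show how large a change these libraries leave room for. All 10 lay within a 1.5-fold change either way, from 0.690-fold at the low end for Nfat5 to 1.28-fold at the high end for Rcan1, as did those of 49.7% of all genes tested. In 4 of 10 genes the vehicle and 5D values did not overlap, 2 of them higher with 5D and 2 lower, where 37.6% of all genes tested did not overlap, 18.7% higher and 18.8% lower. These are bulk libraries, so fewer cells of a type and less RNA per cell cannot be told apart.

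**Figure D1:**
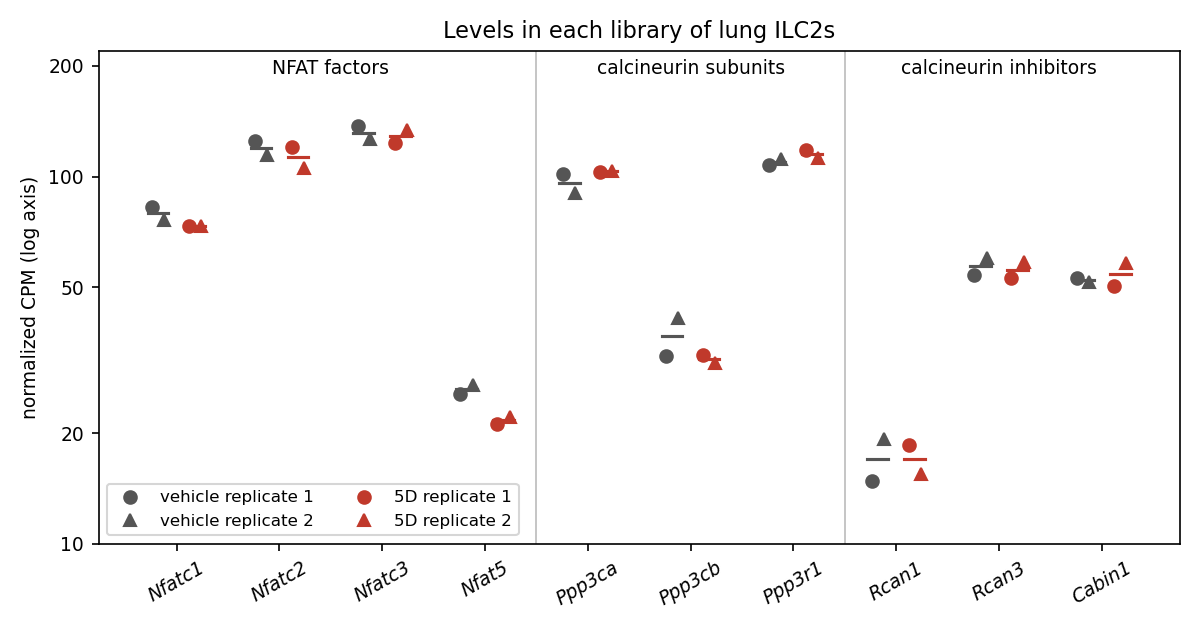
Normalized CPM (log axis) of the 10 genes, grouped by role, with circles for replicate 1, triangles for replicate 2, grey for vehicle, red for 5D and a bar at each group mean. The vehicle and 5D values do not overlap for Nfatc1, Nfat5, Ppp3ca and Ppp3r1.

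All 4 NFAT factors were expressed, and their log2 fold changes were below 0, from -0.28 to -0.03, with Nfat5 at the low end. Summed, they reached 369 and 344 normalized CPM with vehicle and 339 and 334 with 5D. Nfatc1 and Nfatc2 encode the calcium-controlled factors most studied in lymphocytes, and Nfatc3 encodes a close relative that calcineurin also controls. Nfatc1 (chromosome 18, 80606205 to 80713071, minus strand, mm10) had 82.4 and 76.2 normalized CPM with vehicle and 73.5 and 73.3 with 5D. The 5D values were both below the vehicle values, by less than the test could separate (log2 fold change -0.11, SE 0.07, 95% interval -0.28 to 0.05, edgeR adjusted p = 0.817). Nfatc2 (chromosome 2, 168476410 to 168601657, minus strand) had 125 and 114 normalized CPM with vehicle and 120 and 105 with 5D, so that the groups overlapped (log2 fold change -0.08, SE 0.08, edgeR adjusted p = 0.883). Without 5D replicate 2 its log2 fold change was 0.01. Nfatc3 (chromosome 8, 106058840 to 106130537, plus strand) had 137 and 126 normalized CPM with vehicle and 124 and 134 with 5D, and here too the groups overlapped (log2 fold change -0.03, SE 0.07, edgeR adjusted p = 0.959). Its sign turned without vehicle replicate 1 (0.03) and without 5D replicate 1 (0.02). A stretch of 219 bases of its exons is shared with the antisense gene Esrp2.

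Nfat5 (chromosome 8, 107293470 to 107379517, plus strand) is the outlying member of the family, since its product responds to osmotic stress and lacks the calcineurin docking of the NFATc proteins. It had 25.6 and 27.1 normalized CPM with vehicle and 21.2 and 22.1 with 5D. Both 5D values were below both vehicle values, with a log2 fold change of -0.28 (SE 0.12, 95% interval -0.54 to -0.03, unadjusted p = 0.0321, edgeR adjusted p = 0.624). Across the alternatives that kept all 4 libraries its log2 fold change was -0.31 to -0.27, with unadjusted p from 0.0232 to 0.068. It missed the unadjusted threshold without vehicle replicate 2 (p = 0.125), without 5D replicate 1 (p = 0.122) and without 5D replicate 2 (p = 0.0635), each an unadjusted p from the edgeR model over all genes, not an exact test. Exons of Nfat5 hold stretches of 150 to 160 bases that are 95 to 96.2% identical to exons of 12 other genes, so its count is uncertain where such reads were split. Of 8 genes listed as NFAT5 targets, such as those for uptake of osmolytes, 8 were tested and 0 passed the unadjusted threshold, with a median log2 fold change of -0.0009.

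**Figure D2:**
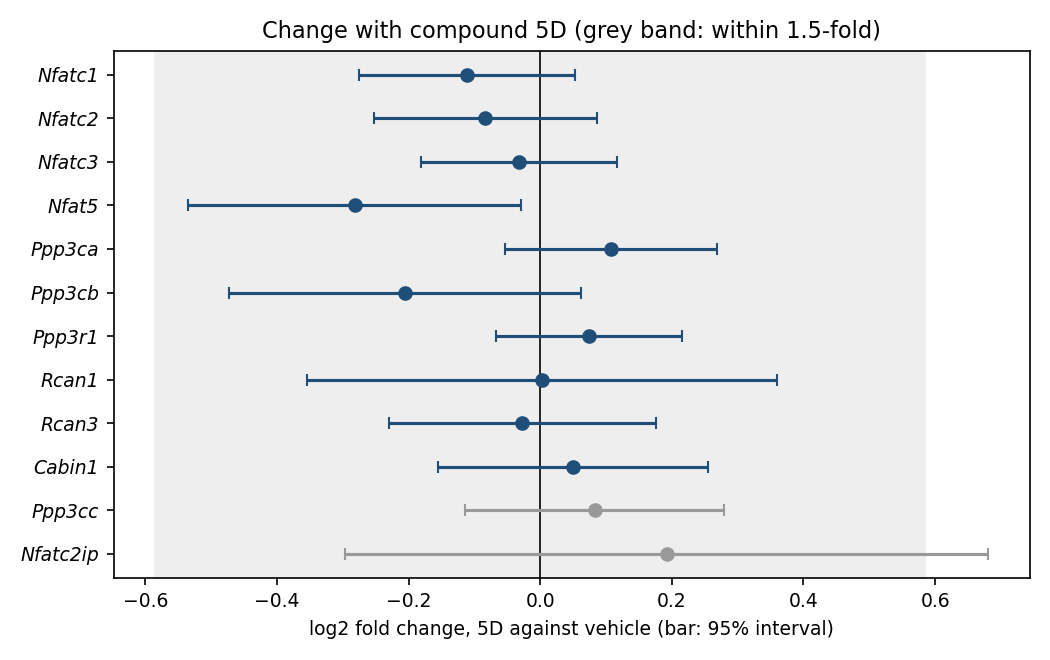
Log2 fold change of 5D over vehicle by edgeR for the 10 genes (blue) and for Ppp3cc and Nfatc2ip (grey), with bars for the 95% interval and a grey band for changes within 1.5-fold. The 10 blue intervals stay inside the band, that of Nfatc2ip (-0.30 to 0.68) leaves it, and that of Nfat5 (-0.54 to -0.03) does not reach 0.

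The 3 calcineurin subunits summed to 241 and 243 normalized CPM with vehicle and 254 and 247 with 5D, and 0 of 3 passed either threshold. Calcineurin pairs a catalytic A subunit, encoded by Ppp3ca, Ppp3cb or Ppp3cc, with the calcium-binding B subunit, encoded outside the testis by Ppp3r1. Ppp3ca (chromosome 3, 136670124 to 136937727, plus strand) had 101.7 and 90.1 normalized CPM with vehicle and 103.1 and 103.7 with 5D. Both 5D values were higher, with a log2 fold change of 0.11 (SE 0.07, edgeR adjusted p = 0.820). Ppp3cb (chromosome 14, 20499364 to 20546573, minus strand) had 32.5 and 41.1 normalized CPM with vehicle and 32.6 and 31.1 with 5D. Here vehicle replicate 2 stood above the other 3 libraries, and the log2 fold change was -0.21 (SE 0.12, 95% interval -0.47 to 0.06, edgeR adjusted p = 0.776). Both catalytic genes rested on which vehicle library was kept. Without vehicle replicate 1 the log2 fold changes were 0.19 for Ppp3ca (unadjusted p = 0.0354) and -0.37 for Ppp3cb (unadjusted p = 0.00644), by edgeR, and 3 of the 10 genes passed the unadjusted threshold, these and Nfat5, where 11.2% of all genes tested without that library did. Without vehicle replicate 2 they were 0.02 and -0.03. Ppp3r1 (chromosome 11, 17159263 to 17200375, plus strand) had 107.3 and 111.6 normalized CPM with vehicle and 118.2 and 112.2 with 5D. Its 5D values were both higher, 5D replicate 2 by a narrow margin over vehicle replicate 2, and the log2 fold change was 0.07 (SE 0.06, edgeR adjusted p = 0.872). It shares 462 bases of exon with Wdr92 on the same strand, and reads from that stretch cannot be assigned to either gene.

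Of the 3 inhibitors, 0 passed either threshold, and the vehicle and 5D values overlapped in all 3. They summed to 122 and 131 normalized CPM with vehicle and 122 and 132 with 5D. Rcan1 (chromosome 16, 92391953 to 92470867, minus strand), the feedback inhibitor whose start windows are shown above, had 14.8 and 19.3 normalized CPM with vehicle and 18.6 and 15.5 with 5D. Each group held a high and a low library, and the log2 fold change was 0.0026 (SE 0.16, 95% interval -0.35 to 0.36, edgeR adjusted p = 0.998). Among the 10 genes Rcan1 had the widest gap between libraries of a group, 30.2% of the lower value. Its sign turned without vehicle replicate 1 (-0.18), without 5D replicate 1 (-0.14) and when the upper quartile came from the filtered genes (-0.01). Rcan3 (chromosome 4, 135412308 to 135433853, minus strand), a relative of Rcan1 that also binds calcineurin, had 53.9 and 59.9 normalized CPM with vehicle and 52.9 and 58.7 with 5D. Its log2 fold change was -0.03 (SE 0.09, edgeR adjusted p = 0.982) and turned to 0.05 without vehicle replicate 2 and 0.04 without 5D replicate 1. Cabin1 (chromosome 10, 75646112 to 75764341, minus strand) encodes a large calcineurin-binding protein that also represses MEF2 factors. It had 52.9 and 51.8 normalized CPM with vehicle and 50.3 and 58.0 with 5D, so that the 2 libraries with 5D lay on either side of the vehicle libraries (log2 fold change 0.05, SE 0.09, edgeR adjusted p = 0.955). Without 5D replicate 2 the log2 fold change was -0.06.

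**Figure D3:**
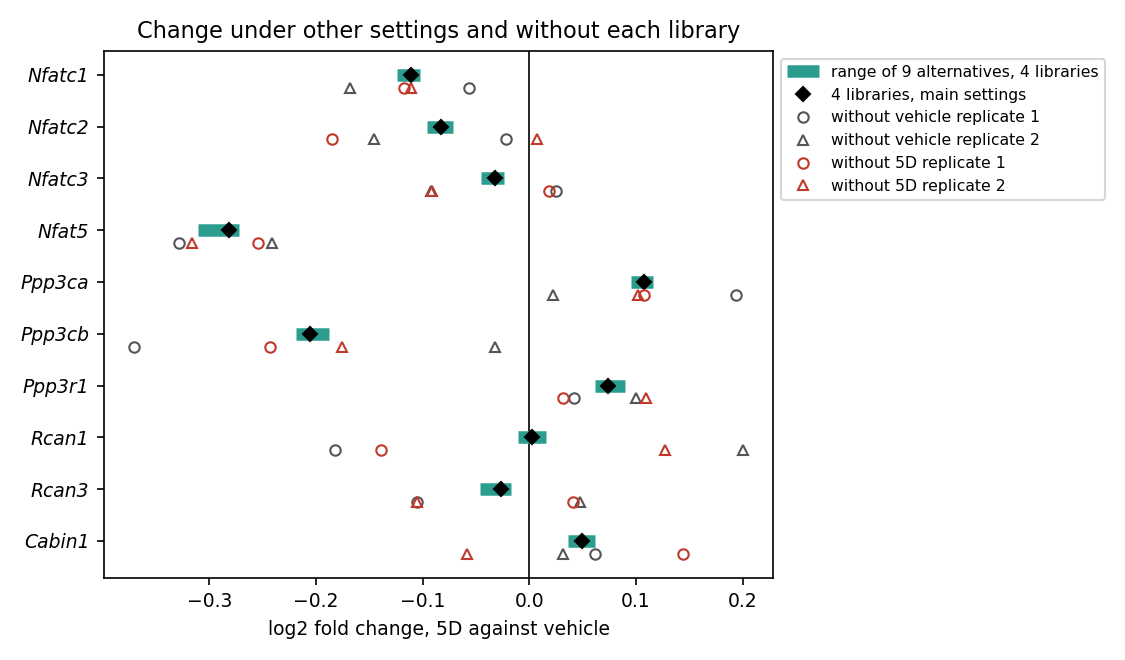
Log2 fold change of 5D over vehicle for each of the 10 genes, with a diamond for all 4 libraries under the main settings, a bar for the range of the 9 alternatives that keep all libraries and open symbols for each library left out. With a library left out the value ranges from -0.37 to -0.03 for Ppp3cb and from -0.18 to 0.20 for Rcan1, wider than the bars.

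Of the family genes outside the 10, Ppp3cc and Nfatc2ip were tested, while Nfatc4, Ppp3r2 and Rcan2 had no row in the count table. Ppp3cc, a catalytic subunit gene best known from the testis, had 45.16 and 45.97 normalized CPM with vehicle and 46.54 and 49.94 with 5D. Both 5D values were higher by a small margin (log2 fold change 0.08, SE 0.09, edgeR adjusted p = 0.900). Nfatc2ip, whose product binds Nfatc2 and enhances cytokine transcription, had 6.67 and 6.15 normalized CPM with vehicle and 8.59 and 6.09 with 5D. Its groups overlapped (log2 fold change 0.19, SE 0.22, edgeR adjusted p = 0.909), and without 5D replicate 1 the log2 fold change was -0.08.

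Levels of different genes were compared per length, as normalized CPM per kilobase of merged exon (mean ± SD over all 4 libraries). Ppp3r1 led at 34.8 ± 1.40, and Ppp3cc followed at 15.7 ± 0.70. Nfatc3 (11.1 ± 0.53), Rcan3 (11.02 ± 0.67), Nfatc2 (10.97 ± 0.79), Nfatc1 (10.2 ± 0.57) and Ppp3ca (9.98 ± 0.64) came next, and libraries of neighbours in this run overlapped. Below them Rcan1 stood at 5.53 ± 0.72, and Cabin1 (4.38 ± 0.27) and Ppp3cb (3.90 ± 0.52) overlapped each other. Nfatc2ip at 2.03 ± 0.35 and Nfat5 at 1.31 ± 0.15 were lowest, each apart from its neighbours. The order depends on the length used. Per kilobase of the longest coding transcript, a choice made after seeing the data, Ppp3r1 (39.3) and Ppp3cc (23.8) still led, and Nfatc3 (21.7) and Ppp3ca (20.9) came before Nfatc2 (17.0).

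Within the NFAT factors, Nfatc3, Nfatc2 and Nfatc1 made up 33.04%, 32.6% and 30.4% of the per-length level, averaged over the libraries, and Nfat5 3.89%. The share of Nfat5 was 3.878% and 4.443% with vehicle and 3.503% and 3.721% with 5D. Among the catalytic subunits, Ppp3cc held 53.1%, Ppp3ca 33.7% and Ppp3cb 13.2%, while of the undivided counts Ppp3ca held 55.1% and Ppp3cc 25.9%. The share of Ppp3cb was 12.72% and 16.03% with vehicle and 12.48% and 11.53% with 5D, so both 5D values were lower. Of the 2 RCAN genes, Rcan3 held 66.7% and Rcan1 33.3%. The summed catalytic subunits reached 0.873 and 0.841 of the level of Ppp3r1 with vehicle and 0.809 and 0.882 with 5D. This ratio turns with the length used, since by the longest coding transcript the catalytic subunits reached 1.37 times the level of Ppp3r1 on average. The ratio of Rcan1 and Rcan3 to the catalytic subunits was 0.529 and 0.617 with vehicle and 0.553 and 0.538 with 5D, and its mean was 0.342 by the longest coding transcript. In both ratios the groups overlapped. The ratio of Nfatc1 to Nfatc3, summed, to the catalytic subunits was 1.19 and 1.09 with vehicle and 1.07 and 1.02 with 5D, lower in both 5D libraries. With 2 libraries against 2, the two-sided exact permutation test cannot go below p = 0.333, so none of these shares or ratios could pass a threshold of 0.05.

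**Figure D4:**
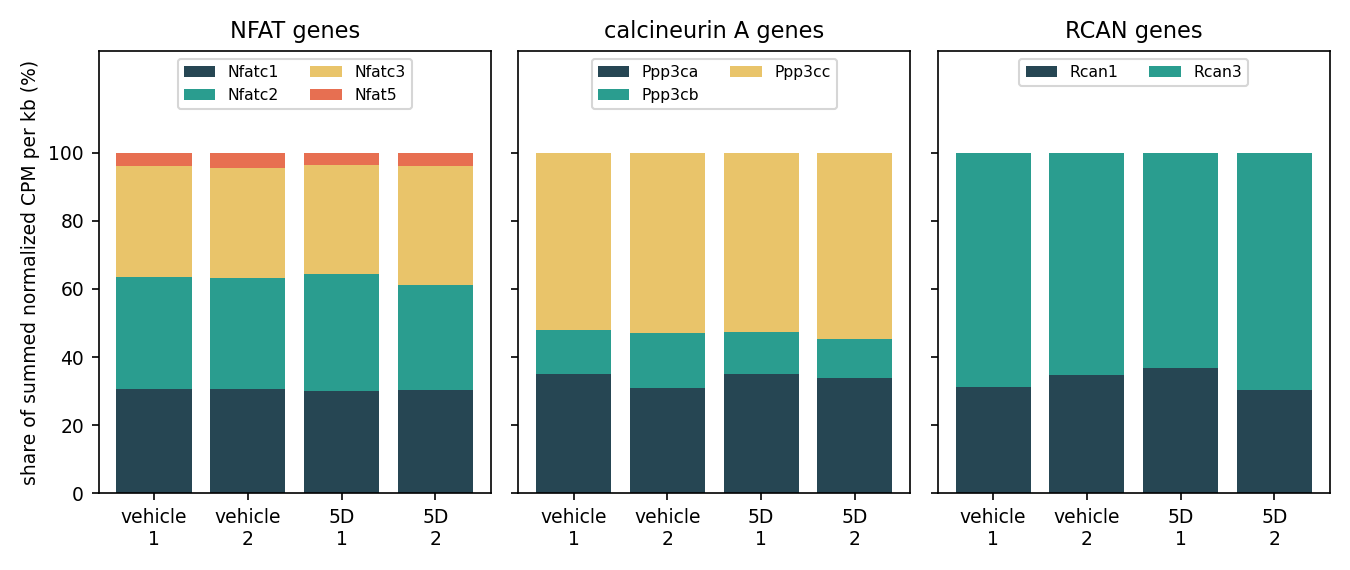
Stacked bars of the share of each gene (percent) in the summed normalized CPM per kilobase of its family, in each vehicle and 5D library, for the NFAT factors, the catalytic (A) subunits of calcineurin and the RCAN genes. Nfat5 takes 3.503 to 4.443% of the NFAT factors, and Ppp3cc takes more than 52% of the catalytic subunits in each library.

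The other genes of the pathway were read from lists of NFAT kinases, calcineurin partners, further substrates and targets, with the family genes above included. Of 69 listed genes 57 were tested, 2 were higher and 8 lower at the unadjusted threshold, where 3.5% and 3.84% of all genes tested were, and 1 was lower at the adjusted one. Their median log2 fold change was -0.02. The lists were chosen with earlier results of these data known, so their counts are not independent of those results. The 8 kinases that send NFAT out of the nucleus had a median of -0.03, and 1 passed the unadjusted threshold. It was Gsk3b, which encodes a glycogen synthase kinase that phosphorylates NFATc proteins, with 75 and 78.4 normalized CPM with vehicle and 61.6 and 69.9 with 5D (log2 fold change -0.22, SE 0.08, edgeR adjusted p = 0.579). The groups did not overlap, and the unadjusted call was lost without vehicle replicate 2 (log2 fold change -0.19) and without 5D replicate 1 (-0.14). Of 10 scaffolds and regulators, among them Ppia and Fkbp1a, whose proteins carry cyclosporin and tacrolimus to calcineurin, 0 passed (median 0.02). Of 8 further substrates 7 were tested (median -0.02), and 1 passed the unadjusted threshold. Mef2d, a transcription factor gene, had 57.4 and 52.8 normalized CPM with vehicle and 47.1 and 44.3 with 5D, below in both libraries (log2 fold change -0.27, SE 0.09, edgeR adjusted p = 0.552). Its unadjusted call was lost without vehicle replicate 1 (log2 fold change -0.21) and without 5D replicate 2 (-0.23).

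Of 30 genes known to be induced by calcium and NFAT in lymphocytes, 22 were tested, with a median log2 fold change of -0.08. At the unadjusted threshold 2 were higher and 6 lower, where 3.5% and 3.84% of all genes tested were. In 15 of 22 the groups did not overlap, 5 of them higher and 10 lower, where 37.6% of all genes tested did not overlap, 18.7% higher and 18.8% lower. Some of these separations rest on few counts. Among the lower genes, Il2 had 17 and 16 counts with vehicle and 17 and 5 with 5D. Nr4a2 had 13 and 36 with vehicle and 14 and 16 with 5D, and its groups parted at 0.5597 against 0.5596 normalized CPM. Among the higher genes, Ccl4 also had few counts. The list was chosen with earlier results of these data known, and it holds Il9 and Il5. The paper already reports these genes as lower with the blocker in the same libraries. The counts of this list are therefore not an independent test against all genes. Il9, the gene of a type 2 cytokine that ILC2s secrete for a short time after activation, was the 1 gene that passed the adjusted threshold. It had 11.7 and 7.85 normalized CPM with vehicle and 3.28 and 3.01 with 5D, and fell by 1.64 on the log2 scale (SE 0.25, 95% interval -2.18 to -1.10, edgeR adjusted p = 0.0314). DESeq2 gave Il9 no adjusted p-value. The call was lost without 5D replicate 1 (adjusted p = 0.0517) and without 5D replicate 2 (adjusted p = 0.109), at log2 fold changes of -1.70 and -1.58. Il2ra, the high-affinity chain of the IL-2 receptor, had 2221 and 2068 normalized CPM with vehicle and 1771 and 1874 with 5D. Its values were lower in both 5D libraries, and it missed the adjusted threshold (log2 fold change -0.23, SE 0.04, edgeR adjusted p = 0.0878), which it passed without vehicle replicate 1 (adjusted p = 0.0175), without vehicle replicate 2 (adjusted p = 2.89e-06) and without 5D replicate 2 (adjusted p = 0.0391). With all 4 libraries kept, Il2ra also passed when the upper quartile came from the filtered genes (adjusted p = 0.0487), by DESeq2 (adjusted p = 4.87e-05), by limma-voom (adjusted p = 0.00821) and with no filter (edgeR adjusted p = 0.00625), at log2 fold changes of -0.25 to -0.23. The other 4 lower genes, named after their values were seen, were Tnfrsf9 (log2 fold change -0.34), Il5 (-0.08), Nr4a1 (-0.47) and Egr2 (-0.94). The size of the Nr4a1 difference depended on the libraries kept in both groups. Its unadjusted call was lost without vehicle replicate 2 (log2 fold change -0.23) and without 5D replicate 1 (-0.34). The log2 fold change was -0.68 without vehicle replicate 1 and -0.61 without 5D replicate 2. The unadjusted call was also lost for Tnfrsf9 without vehicle replicate 2 and for Il5 without 5D replicate 1. For Egr2 it was lost by DESeq2, with thinned counts and without vehicle replicate 1, 5D replicate 1 or 5D replicate 2.

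The 2 higher genes of this list were Csf2 and Ccl4. Csf2, the gene of the cytokine GM-CSF, had 347 and 346 normalized CPM with vehicle and 379 and 396 with 5D. Both 5D values were higher, by little (log2 fold change 0.16, SE 0.05, edgeR unadjusted p = 0.00497, adjusted p = 0.487). With all 4 libraries kept, the alternatives (edgeR, DESeq2 and limma-voom) gave unadjusted p of 0.00172 to 0.00794, and none passed the adjusted threshold. With a library left out the log2 fold change of Csf2 was 0.13 to 0.19. The paper lists GM-CSF among cytokines whose production fell with 5D or deletion of Orai1 and Orai2. It assayed secreted cytokines as protein, whereas these counts are RNA. Ccl4, a chemokine gene, had 0 and 10 counts with vehicle and 82 and 18 with 5D, so its difference rested largely on 5D replicate 1 (edgeR adjusted p = 0.555, and 0.921 without that library). Without vehicle replicate 2, which leaves 0 counts for vehicle, Ccl4 passed the adjusted threshold (adjusted p = 7.78e-06), and by DESeq2 it missed the unadjusted one.

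**Figure D5:**
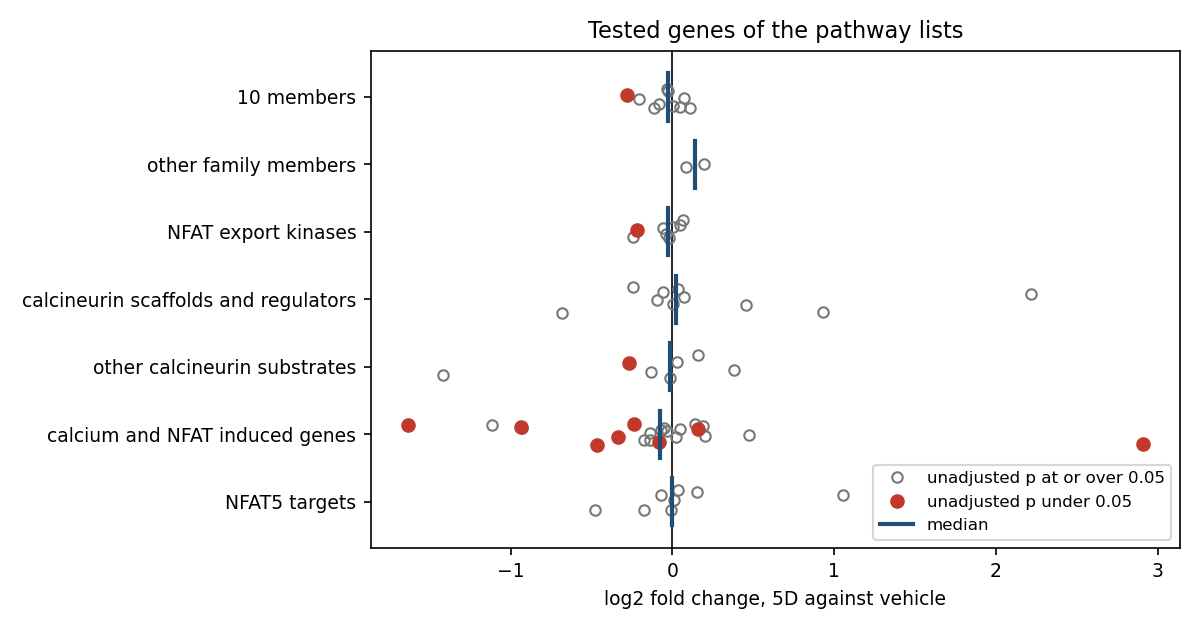
Log2 fold change of 5D over vehicle for each tested gene of the 10 and of the pathway lists, one row per list, with filled points for an unadjusted p under 0.05 and a bar at each median. Il9 (-1.64) and Ccl4 (2.91) lie farthest out among the calcium and NFAT induced genes, and the NFAT5 target row holds no filled point.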

How the data were processed

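Lung ILC2s of BALB/c mice were compared between vehicle and compound 5D. Per the labels and the study's methods, the authors made libraries with the SMARTer Ultra Low Input kit, aligned reads to mm10 with STAR 2.6.1, used GENCODE annotation and deposited estimated counts per gene. The kit does not mark strand. The submitters' processing notes also name CASAVA 1.8.2 and Partek. The values need not be whole (34 of 40 values of the 10 genes were within 0.05 of a whole number) and were rounded. Reads shared between overlapping genes or copies may have been split by the counting.

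Counts were scaled by the upper quartile of each library, and a gene was kept where its normalized counts averaged at least 1 and summed to at least 10, which left 17650 of 22554. The 2 groups were compared with edgeR 4.0.16 (R 4.3.3, quasi-likelihood test, two-sided, no covariates), with p-values adjusted by Benjamini-Hochberg across the 17650 genes and calls at an adjusted p under 0.05. edgeR stands in for the Partek Gene Set Analysis of the study. The SE is the absolute log2 fold change over the square root of F, and intervals use the t quantile. The fit was tested on simulated data. The common biological coefficient of variation was 8.51%. Replicate libraries varied beyond counting error, and depths of 20096513 to 28697196 counts limit genes with few counts. Gene coordinates and exon lengths are from GENCODE M21 on mm10, shared stretches were searched with BLAST 2.17.0, and promoter windows are from RefSeq. Alternatives were TMM, DESeq2 size factors, the upper quartile after the filter, DESeq2 1.42.0, limma-voom (limma 3.58.1), no filter, filterByExpr, a replicate block, thinned counts and each library left out. Leaving out a library leaves 1 in its group, which is assumed to vary like the other group.

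The members and gene lists were chosen with earlier results of these data known. Genes named are the members, 5 other family genes and, from each list, those past the adjusted threshold plus, in each direction, the 2 of smallest p among those past the unadjusted threshold.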

Additional observations from a re-analysis of the deposited data

How the results depend on the processing

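The 10 genes gave 0 calls at an adjusted p under 0.05 with each alternative that kept all 4 libraries. DESeq2 gave Nfat5 and Rcan1 no adjusted p-value. At the unadjusted threshold the count of lower members was 1, 0 by DESeq2 and 0 to 2 with a library left out, and that of higher members 0, and 0 to 1 with a library left out. Over all genes, the 5 higher and 12 lower adjusted calls became 16 and 42 by DESeq2, 9 and 23 by limma-voom, 11 and 35 with no filter, 9 and 32 with the replicate block, and 3 to 73 higher and 12 to 107 lower with a library left out. The 618 higher and 678 lower unadjusted calls became 362 and 416 by DESeq2, and 380 to 1034 and 580 to 861 with a library left out. In the pathway lists the 1 lower adjusted call became 2 with the upper quartile after the filter, limma-voom, no filter or the replicate block, where Il2ra joined Il9 (adjusted p = 0.0146 for Il2ra with the block), and 0 to 3 with a library left out, and the higher count, 0, became 0 to 1. Their 2 higher unadjusted calls became 1 by DESeq2 and 1 to 4 with a library left out, and the 8 lower became 5 to 11. By DESeq2 the 1 lower adjusted call of the lists was Il2ra, and Il9 had no adjusted p-value. The mean share of Nfatc3 moved from 33.04% to 37.6% of undivided counts and 38.5% by the longest coding transcript, that of Ppp3cc from 53.1% to 25.9% and 44.3%, and that of Rcan3 from 66.7% to 76.8% and 60.1%. Log2 fold changes turned sign for Nfatc2 (0.0071 without 5D replicate 2), Nfatc3 (0.025 without vehicle replicate 1, 0.018 without 5D replicate 1), Rcan1 (-0.010 with the upper quartile after the filter, -0.18 without vehicle replicate 1, -0.14 without 5D replicate 1), Rcan3 (0.047 without vehicle replicate 2, 0.041 without 5D replicate 1), Cabin1 (-0.059 without 5D replicate 2) and Nfatc2ip (-0.080 without 5D replicate 1). With a library left out their values spanned -0.19 to 0.0071 for Nfatc2, -0.093 to 0.025 for Nfatc3, -0.18 to 0.20 for Rcan1, -0.11 to 0.047 for Rcan3, -0.059 to 0.14 for Cabin1 and -0.080 to 0.42 for Nfatc2ip. The sign was kept in 5 members, Nfatc1, Nfat5, Ppp3ca, Ppp3cb and Ppp3r1. Fewer libraries leave less to estimate the spread from, and otherwise the cause was not tested.

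Libraries that share a replicate number did not deviate together (r = 0.016 over 12331 genes, across genes). With 2 libraries in each group this cannot show whether they share a mouse, sort or culture. The replicate block gave no further call among the members.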
